A study of Drosophila melanogaster with 12 samples.

Results

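Transposable elements (TEs) that were near silent in control larvae were followed into *ISWI* mutant larvae. The table holds 3840 annotated TE insertions, named FBti or RR, among 41081 features, and an insertion was included when its mean over the 6 control libraries was under a normalized count of 10. This rule gave 1951 insertions (50.8% of the 3840), from 118 of 153 families. An insertion was said to reach 10 in a sex when the mean of the 3 mutant libraries of that sex was 10 or more. The rule averages both control sexes, so the controls of that sex alone could already be at 10 or more. RNA was sequenced from whole third-instar larvae of 4 groups, with 3 libraries per group and pooled larvae in each library. The controls, females (CF) and males (CM), were +/+. The mutants, females (IF) and males (IM), carried the allele pair Iswi1/Iswi2, a combination of 2 point mutations, made in a *yw* background, and were picked as larvae without the GFP-marked balancer. No treatment is named for any group, and all stocks were kept at 25 degrees. The controls are not said to share the *yw* background, so the mutation and the strain cannot be told apart. Which of the insertions each strain carries was not tested.

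TEs are mobile DNA sequences that make up a good part of the *Drosophila* genome. Retrotransposons move through an RNA copy: LTR retrotransposons are built like retroviruses between long terminal repeats, and non-LTR retrotransposons are copied directly into the target site. DNA transposons move as DNA, either with terminal inverted repeats or, for Helitrons, by a rolling-circle mechanism. In flies, TE transcripts are held down by heterochromatin and by small RNA pathways, the piRNA pathway mainly in the gonads and the siRNA pathway in the body. ISWI is the ATPase subunit of several complexes that slide and space nucleosomes. The symbol of an insertion gives its family before the braces and its copy after them, as in Tirant{}475. Families were counted as spelled there, so Dm88 and DM88, X and X-element, and Doc3 and Doc3-element were counted apart. The copies of 1 family have much sequence in common, so how reads were divided among them is uncertain, and copies are not independent measurements. Values were not divided by length, so levels are compared within an insertion and not between insertions. In whole larvae, more cells with a transcript and more transcript per cell cannot be told apart.

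Reads, recovered as whole steps of the values in each library, summed over all features to between 89290368 and 119202607 per library. They come from the StringTie quantification, and whether each was 1 sequenced read was not tested. One read was worth between 0.629 and 1.25 normalized counts, so a value of 10 stands for about 8 to 16 reads. Mutant male replicate 2 and control male replicate 2 stood apart from the other libraries. Only 7.38% of the near-silent insertions were without a read in mutant male replicate 2 and 15.4% in control male replicate 2, against 22.7% to 37.5% in the other 10 libraries. The counts by sex are given with and without them.

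Most of the near-silent insertions stayed near silent. Neither sex of the mutants reached 10 for 1507 of the 1951 insertions (77.2%). Mutant females reached 10 for 312 insertions (15.99%) and mutant males for 366 (18.8%). Of these, 234 (11.99%) were shared by both sexes, 78 were found in females alone and 132 in males alone. Without mutant male replicate 2, 105 were found in females alone and 86 in males alone, so the order of the sexes turned. Since the control libraries chose the insertions, these counts are a description and no test was made of them. They include insertions whose controls of the same sex were already at 10 or more. X-element{}1167 had a mean of 13.0 in control males and 10.9 in mutant males, and FB{}2581 had 12.2 and 13.3. How many such insertions there were was not counted. Among all features with a control mean under 10, 25.5% reached 10 in mutant females, 30.9% in mutant males and 18.0% in both. At least 1 sex reached 10 for 38.5% of them, against 22.8% of the insertions. For known transcripts alone the shares were 22.9% in females and 28.9% in males, and for assembled transcripts 59.1% and 67.0%. The share of the insertions was thus under that of the other features chosen alike. Without mutant male replicate 2, the number reaching 10 in males was 293, and without both replicates 2 of the males it was 319, against 330 in females, so which sex had more depends on these libraries.

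A choice on low control values alone leaves more room above than below, and the same rule was therefore turned around. The mean over the 6 mutant libraries was under 10 for 1772 insertions. Of these, control females reached 10 for 177 (9.99%) and control males for 163 (9.20%). At least 1 sex reached 10 for 235 (13.3%), against 444 (22.8%) for the rule as used. Among all features chosen alike it was 3296 of 7815 (42.2%) for the turned rule and 2912 of 7569 (38.5%) for the rule as used. For the insertions, the difference between the rules was greater at higher levels. A mean of 100 or more in at least 1 mutant sex was found for 34 of the near-silent insertions, and the turned rule gave 3, Rt1b{}1062, FB{}Pur-alpha[FB] and 1360{}4665. At 100 or more, the counts among all features chosen alike were 806 of 7569 (10.6%) and 772 of 7815 (9.88%). They were 558 of 921 and 448 of 821 for assembled transcripts, and 214 of 4696 and 321 of 5221 for known transcripts, which alone had the greater share under the turned rule. The plot of mutant against control levels shows the few insertions far above the line at 10.

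**Figure D1:**
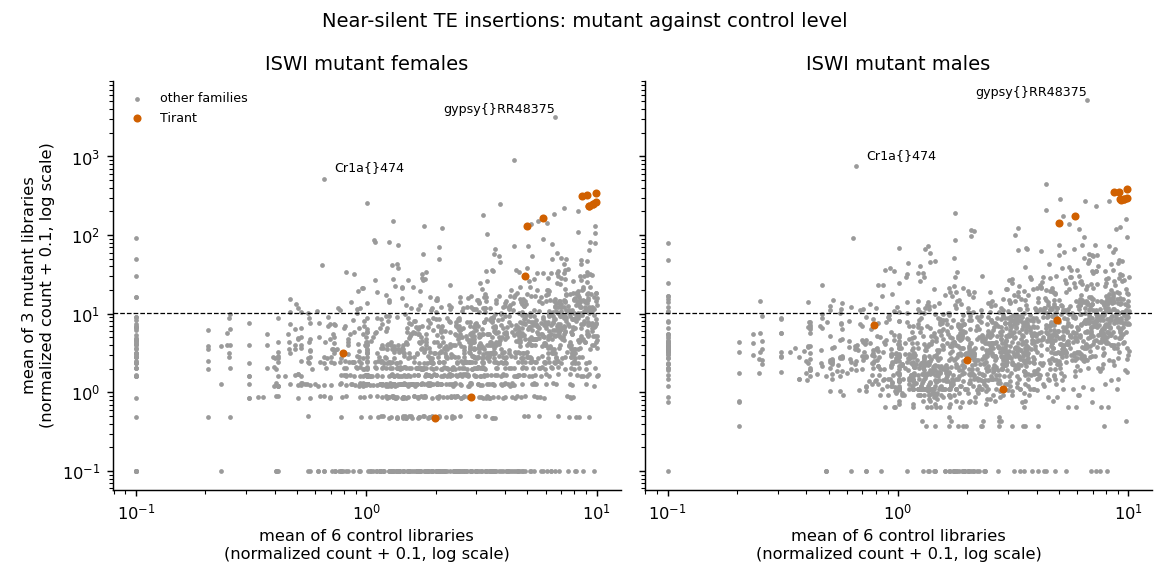
Each point is 1 of the 1951 near-silent TE insertions. The x axis gives the mean of the 6 control libraries and the y axis the mean of the 3 libraries of mutant females (left) or mutant males (right), as normalized count + 0.1 on log scales, and the dashed line marks 10. Most points lie under the line, and 10 of the 14 Tirant insertions (orange) lie far above it in both panels.

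Insertions with a control mean near 10 were those that most often reached 10. The shared cut-off of 10 makes this likely by itself, since a smaller rise takes them over it. Of the 446 insertions with a control mean from 5 to 10, 213 (47.8%) reached 10 in at least 1 sex. The share was 20.7% of 590 insertions from 2 to 5, 13.3% of 445 from 1 to 2, and 9.64% of 415 above 0 and under 1. No read was found in any control library for 55 insertions, of which 10 (18.2%) reached 10 in a sex, so the share was lowest just above 0 and not at 0. The 415 insertions of that lowest band include 154 with exactly 1 read in each control library, of which only 3 reached 10. The control mean had a median of 2.23 normalized counts over all near-silent insertions, and the mutant means had medians of 2.67 in females and 3.52 in males. At the edge of the rule, G5{}556, G5{}1227 and X-element{}1167 lay just inside, with control means of 9.99, 9.94 and 9.93. Tirant{}1399, FB{}2602 and Stalker{}2546 lay just outside, with 10.01, 10.04 and 10.05. Tirant{}1399 was at 166 or more in each mutant library, although it was not counted among the near-silent insertions.

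In single libraries, the mutants of both sexes had more of these insertions at 10 or more than any control library. The number was 133, 124 and 134 for CF and 128, 178 and 116 for CM. It was 335, 375 and 267 for IF and 316, 536 and 289 for IM. The rule itself keeps the control numbers low. For the 1772 insertions of the turned rule, the number was 198, 181 and 207 for CF, 191, 242 and 149 for CM, 120, 139 and 85 for IF and 108, 316 and 95 for IM, so that under that rule the genotypes overlapped through mutant male replicate 2. The summed normalized count of all 1951 insertions was 6035 ± 139 (SD, n = 3) for CF, 6189 ± 1083 for CM, 20727 ± 766 for IF and 25082 ± 3659 for IM. For the turned rule it was 7876 ± 173 for CF, 7363 ± 1543 for CM, 5393 ± 792 for IF and 6914 ± 2344 for IM. The sum of the 1951 insertions was a small part of a library, between 0.00460% and 0.0106% in controls and between 0.0187% and 0.0368% in mutants. Few insertions carried much of it. The 10 with the highest mutant mean gave 31.8% of the sum for IF and 34.8% for IM.

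**Figure D2:**
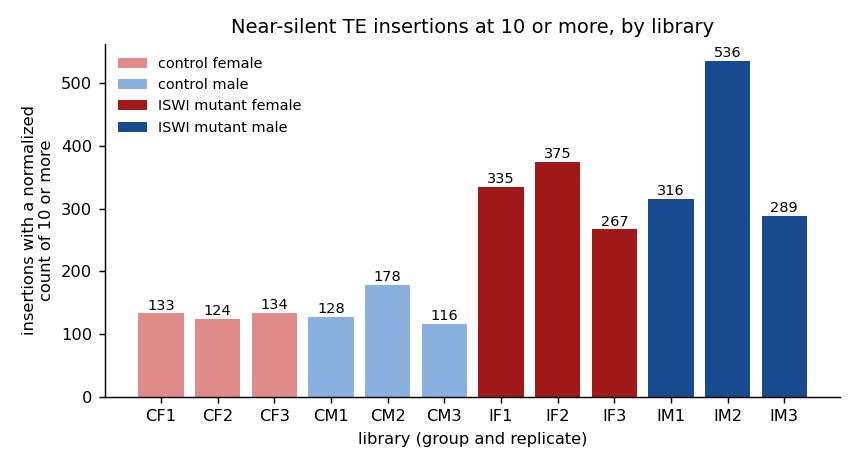
Bars give, for each of the 12 libraries (x axis, C control, I *ISWI* mutant, F female, M male, and the replicate number), the number of the 1951 near-silent insertions with a normalized count of 10 or more. Control libraries lie between 116 and 178 and mutant libraries between 267 and 536, with mutant male replicate 2 as the highest bar.

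The replicates often did not carry a mean of 10 together. Of the 312 insertions reaching 10 in females, 135 (43.3%) were at 10 or more in all 3 libraries, 124 in 2 libraries and 53 in 1 library. In males, 156 of 366 (42.6%) were at 10 or more in all 3 libraries, 139 in 2 and 71 in 1. All 6 mutant libraries lay above all 6 control libraries for 148 of the 1951 insertions (7.59%), which is near the 7.13% found among all features with a control mean under 10. Of these 148 insertions, 123 reached 10 in at least 1 sex and 107 in both. Some control libraries were above 10 as well. Where every control library had to be under 10, 1439 insertions were left, of which mutant females reached 10 for 137 and mutant males for 176.

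The classes of TEs were not alike in how often 10 was reached. Of the 420 near-silent LTR retrotransposon insertions, 140 (33.3%) reached 10 in at least 1 sex, 102 in females and 117 in males. Among all features with a control mean under 10, this share was 38.5%, above that of each named class. The share was 26.0% of 389 non-LTR retrotransposon insertions and 25.1% of 299 DNA transposon insertions with terminal inverted repeats. Among the 28 foldback insertions, named for their long inverted repeats, 4 reached 10, as did 8 of 17 insertions of families in no class of the list. The Helitron class held INE-1 alone, an old and short element that is among the most numerous in the genome, and 116 of its 798 insertions (14.5%) reached 10. INE-1 thus gave 40.9% of the near-silent insertions and 26.1% of those that reached 10. The LTR retrotransposons gave 21.5% and 31.5%, and 22 of the 34 insertions at 100 or more. The shares of the classes are counts of insertions that share families and sequence, and no test was made between them. Values were not divided by length, and neither the classes nor the families below were matched for control mean. These shares therefore do not rank the classes or families by their response to the mutation.

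At the level of families, 95 of the 118 families had at least 1 insertion that reached 10, and in 23 families all near-silent insertions stayed silent. After INE-1, the most insertions reaching 10 came from 1360, a DNA transposon related to the P element, with 29 of 125, and from the non-LTR retrotransposon Cr1a, with 24 of 70. The LTR retrotransposon gypsy12 gave 11 of 28 and the non-LTR retrotransposon X gave 11 of 26, with 1 of 1 more under X-element. The share was higher in some small families, with 11 of 14 for Tirant, 5 of 7 for hopper2 and 5 of 7 for Idefix. It was 5 of 6 for Dm88, with 1 of 1 more under DM88.

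**Figure D3:**
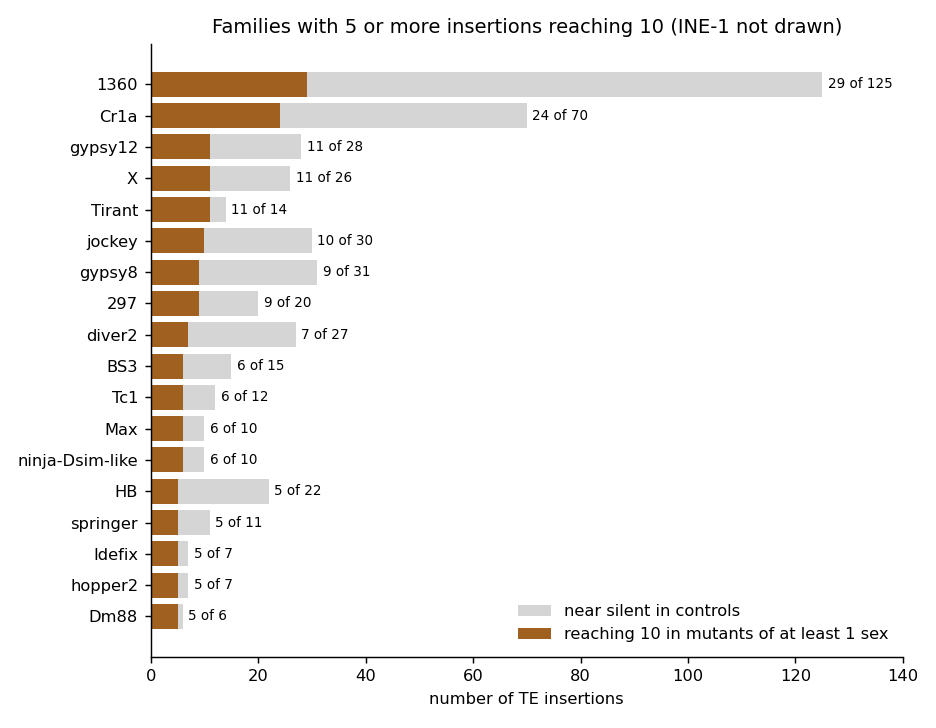
Grey bars give the number of near-silent insertions of a family and brown bars those that reached a mean of 10 in mutants of at least 1 sex, for the families with 5 or more such insertions. INE-1, with 116 of 798, is not drawn. The brown part is 11 of 14 for Tirant and 29 of 125 for 1360.

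Tirant, an LTR retrotransposon of the gypsy type with the build of an endogenous retrovirus, had the most insertions at 100 or more, 10 of 34. For these 10 copies the value in CF ranged from 6.48 to 14.6 in replicate 1, from 3.57 to 11.6 in replicate 2 and from 4.58 to 17.4 in replicate 3. In CM it ranged from 0 to 3.75, from 2.51 to 14.5 and from 2.51 to 7.52. The copies ranged from 182 to 480, from 89.5 to 273 and from 117 to 286 in IF, and from 103 to 292, from 176 to 499 and from 136 to 371 in IM. Every mutant library lay above every control library for all 10 copies. The copies were highest in the same libraries, with medians of 357 in IF replicate 1 and 390 in IM replicate 2. The 9 Tirant insertions with a control mean of 10 or more, which the rule left out, had all 6 mutant libraries above all 6 control libraries too. Over all 23 insertions, Tirant summed to 376 ± 95.8 (SD, n = 3) for CF, 203 ± 44.5 for CM, 6687 ± 2067 for IF and 7695 ± 2205 for IM.

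Of the single copies, Tirant{}1432 had 10.5, 11.6 and 15.6 normalized counts in control females and 480, 273 and 281 in mutant females, a ratio of means of 27.4. In males it had 2.81, 14.5 and 3.76 in controls and 292, 499 and 362 in mutants, a ratio of 54.8. Tirant{}1524, Tirant{}475, Tirant{}1423, Tirant{}24 and Tirant{}1231 had ratios of 18.7 to 26.3 for females and 46.5 to 69.8 for males. For these copies and Tirant{}1432, control means were 12.1 to 13.7 in females and 5.02 to 7.01 in males. Mutant means were 245 to 345 in females and 287 to 384 in males. The greater ratios in males thus went mostly with lower control values, which the rule used, and no interaction of sex and genotype was called for these copies. The other 4 near-silent copies did not come to such levels. Tirant{}328 had 19.4, 64.2 and 6.73 in IF and 5.92, 8.36 and 10.6 in IM, so that it reached 10 in females alone, and Tirant{}3520, Tirant{}3587 and Tirant{}6000 stayed silent.

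**Figure D4:**
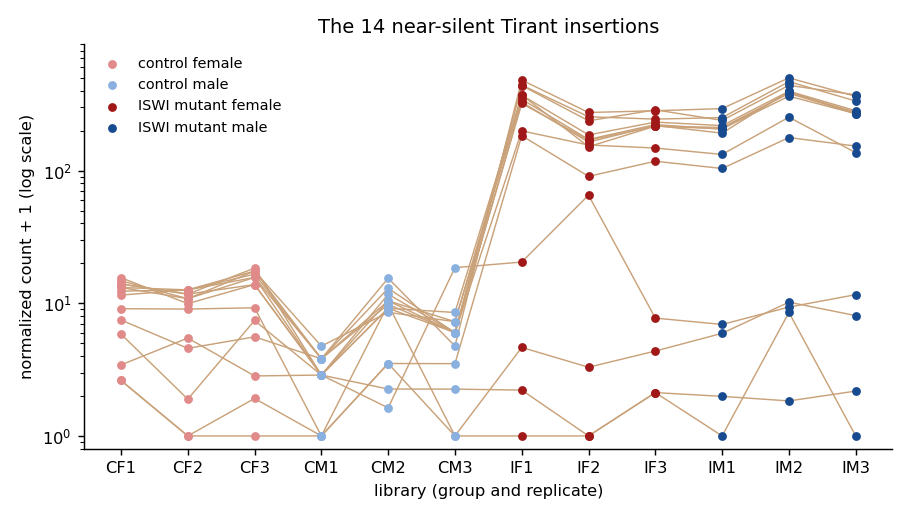
Points give the normalized count + 1 (log scale) of the 14 near-silent Tirant insertions in each of the 12 libraries, and thin lines join the points of 1 insertion. In the mutant libraries 10 copies lie between 89.5 and 499, and in control libraries the same copies are at 17.4 or less.

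Other LTR retrotransposons were among the insertions with the highest mutant means. The copy gypsy{}RR48375, of the endogenous retrovirus gypsy, had 2.43, 2.68 and 9.16 normalized counts in CF and 8.44, 7.54 and 8.77 in CM. It had 1541, 994 and 7100 in IF and 8232, 1167 and 6451 in IM, so that the ratio of means was 675 in females and 640 in males. All mutant libraries were far above all control libraries, but within each mutant sex the replicates were several-fold apart. The 15 gypsy insertions summed to 790 ± 68.3 (SD, n = 3) for CF and 75930 ± 9797 for IF, and to 856 ± 370 for CM and 65408 ± 12537 for IM. The family sum thus had less spread between the mutant replicates than the single copy had. The copy accord2{}5034 had 13.8, 0 and 0 in CF, 7.51, 4.40 and 0 in CM, 701, 1376 and 597 in IF and 586, 543 and 212 in IM. For accord2, too, the family of 4 insertions was higher in mutants, with sums of 419 ± 102 for CF and 7026 ± 2495 for IF, and of 487 ± 258 for CM and 4081 ± 1623 for IM.

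The copy rooA{}3681, of a BEL-like LTR retrotransposon, had exactly 1 read in each of the 6 control libraries. It had 187, 351 and 239 normalized counts in IF and 49.4, 69.4 and 89.6 in IM. The values of the 2 mutant sexes did not overlap, and the log2 difference of males minus females was -1.88 (standard error 0.52), which did not pass the test over all features (adjusted p = 0.10 from limma). The 11 rooA insertions summed to 3261 ± 556 for CF, 3000 ± 718 for CM, 4337 ± 1247 for IF and 4091 ± 494 for IM, with CF and IF within the spread of the replicates. The copy 1731{}207, of a copia-like LTR retrotransposon, had 0.810, 1.79 and 2.75 in CF, 10.3, 18.2 and 8.77 in CM, 294, 156 and 222 in IF and 268, 181 and 257 in IM. It was at 156 or more in all 6 mutant libraries and was chosen here after its values were seen. The copy mdg1{}RR48386 had 226, 8.03 and 160 in IF and 233, 407 and 226 in IM, against at most 13.8 in a control library, so that 1 female library stayed near silent. The highest gypsy12 copy, gypsy12{}4992, had overlapping values, with 7.29, 21.4 and 0.916 in CF and 10.9, 16.1 and 25.8 in IF.

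Some insertions were high in 1 or 2 mutant libraries and without a read in others. The copy micropia{}1338 had 602 normalized counts in mutant female replicate 1 and 809 in mutant male replicate 1, and no read in the other 4 mutant libraries, and it had 36.5 in CM replicate 2. The copy micropia{}1325 had 560 and 177 in mutant female replicates 1 and 2 and no read in the other mutant libraries. All 11 micropia insertions together summed to 315 ± 46.7 for CF, 547 ± 133 for CM, 11653 ± 4912 for IF and 6300 ± 1169 for IM. Idefix{}1702 had no read in any control library, 275 in mutant female replicate 1, 74.4 in mutant male replicate 2 and no read in the other 4 mutant libraries. The 15 Idefix insertions summed to 2541 ± 321 for CF, 3957 ± 1458 for CM, 3058 ± 813 for IF and 3451 ± 1902 for IM. In all, 5 insertions had a mutant library at 100 or more and another of the same sex without a read. Such copies were named after their values were seen, and their means rest on 1 or 2 libraries.

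Among the non-LTR retrotransposons, Cr1a{}474 stood out. It had at most 1 read in each control female library and 0, 2.51 and 0 normalized counts in CM. It had 463, 849 and 252 in IF and 755, 1131 and 374 in IM, so that every mutant library was far above every control library. All 127 Cr1a insertions summed to 7033 ± 405 for CF, 7694 ± 4362 for CM, 12387 ± 1179 for IF and 97887 ± 58730 for IM. The 70 near-silent ones took 1218 ± 436 of this sum for IF and 1531 ± 765 for IM, so the large sum of the mutant males lay mostly in other copies. G4{}2931 had no read in any control library, and 65.6, 14.9 and 67.3 in IF and 44.4, 115 and 77.8 in IM, at least 18.8-fold higher in females and at least 28.1-fold higher in males against 3 reads per library. The copy jockey{}1278 had at most 4.86 in any control library and 131, 104 and 77.4 in IF and 143, 119 and 110 in IM. X{}2790 had at most 6.41 in controls, with 109, 49.3 and 50.5 in IF and 60.2, 199 and 86.0 in IM. G4{}2931 and jockey{}1278 were chosen after their values were seen.

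Among the DNA transposons and Helitrons, 3 of the 34 insertions at 100 or more were found. The highest INE-1 insertion, INE-1{}2789, had 1.62, 0 and 0.916 normalized counts in CF, 7.51, 0 and 0 in CM, 199, 106 and 87.5 in IF and 140, 278 and 156 in IM. The 1188 INE-1 insertions as a whole summed to 45138 ± 5808 for CF, 41683 ± 4702 for CM, 43601 ± 4958 for IF and 47110 ± 5878 for IM, within the spread of the replicates. Their near-silent insertions summed to 2321 ± 56.9 for CF, 2167 ± 484 for CM, 3445 ± 614 for IF and 4155 ± 1166 for IM. The copy 1360{}2406 had no read in CF, 0, 3.14 and 3.76 in CM, 123, 87.2 and 33.6 in IF and 46.4, 61.9 and 13.0 in IM. It was thus at least 31.0-fold higher in mutant females against 3 reads per library. The copy S{}rdx[S1357], of a transposon of the Tc1/mariner group, had at most 7.33 in controls and 158, 147 and 108 in IF and 149, 248 and 132 in IM. It was chosen after its values were seen.

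The silent insertions were not all without reads. Among the 1507 that stayed under 10 in both mutant sexes, 359 had at least 1 mutant library at 10 or more and 1148 had none. Only 21 of the 1951 insertions had no read in any of the 6 mutant libraries. Exactly 1 read in each of the 6 control libraries was found for 154 insertions, and 113 of these had exactly 1 read in all 12 libraries. Whether such a constant single read is a floor of the quantification was not tested. Of the 154, rooA{}3681, springer{}691 and 1360{}1539 reached 10 in a sex. At most 3 reads in every one of the 12 libraries were found for 231 insertions (11.8%), for which a difference of a few reads was not detectable at this depth.

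The mutant columns were not used by the rule, so mutant males and mutant females could be compared with a test. Of the 1951 insertions, 453 passed the filter, which asked for 10 or more in 3 or more of the 12 libraries, and were tested with limma among 35284 features. Only 3 were called higher in mutant males (Benjamini-Hochberg adjusted p-value under 0.05) and 0 were called lower, against 2.99% and 0.213% of all features. At an unadjusted p-value under 0.05 there were 20 of the 453, 16 higher and 4 lower in males, against 11.98% of all features tested. With the edgeR quasi-likelihood test 0 insertions were called in either direction, and with DESeq2 2 were called higher and 2 lower. For the summed normalized count given above, the difference of 4356 between IM and IF had p = 0.2 (two-sided exact permutation test over 3 and 3 libraries), where 0.1 is the smallest p possible.

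The 3 insertions called had no or almost no reads in mutant females. INE-1{}3545 had no read in the 3 mutant female libraries and 20.7, 99.5 and 18.9 normalized counts in the mutant males, at least 13.3-fold higher against 3 reads per library. Without mutant male replicate 2 this bound was 5.68-fold. None of the other 9 libraries had 10 or more, so this insertion passed the filter through the mutant males alone and its call is a description. The LTR insertion 3S18{}177 had no read in any female library of either genotype, 24.7, 27.6 and 18.9 in the mutant males and 25.3, 0.629 and 11.3 in the control males. On the scale with 1 added, its log2 difference between the mutant sexes was 4.61 (standard error 0.90, adjusted p = 0.020 from limma). The foldback insertion FB{}2581 had 1 read in each mutant female library, 9.87, 18.4 and 11.8 in the mutant males and 10.3, 8.80 and 17.5 in the control males, with a log2 difference of 2.69 (standard error 0.60, adjusted p = 0.038 from limma). Both 3S18{}177 and FB{}2581 had 2 control male libraries at 10 or more and would not have passed the filter without the mutant males either. Their calls and adjusted p-values are thus a description too. Leaving out a mutant library left at most 1 call, and with only the 2 mutant groups in the fit no call was left. For the interaction of sex and genotype, which uses the controls too, 1 of the 453 was called, HeT-A{}5504, and 0.799% of all features. The control libraries chose the insertions, so this call is a description.

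**Figure D5:**
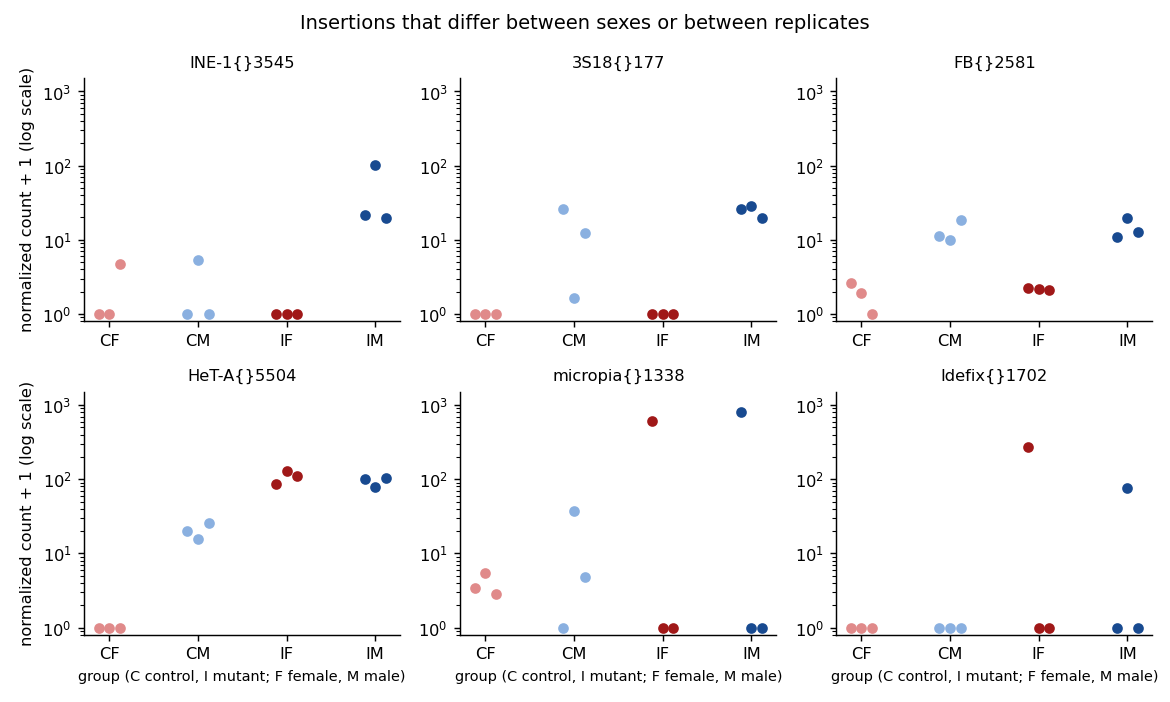
Points give the normalized count + 1 (log scale) of 6 insertions in the 3 libraries of each group. INE-1{}3545, 3S18{}177 and FB{}2581 are at 1 read or none in mutant females, HeT-A{}5504 has no read in control females alone, and micropia{}1338 and Idefix{}1702 are high in 1 library of each mutant sex.

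Insertions were also chosen on the control libraries of 1 sex and compared in the other sex, whose libraries the choice did not use. An insertion low in the controls of 1 sex can be low in those of the other, which leaves little room for down-regulation. The filter counted all 12 libraries, so a low insertion could pass through the mutant libraries in which it was high. The calls are therefore read as a description. A mean under 10 in control males was found for 1994 insertions, of which 509 passed the filter. Of the 1994, 100 (5.02%) were up-regulated in IF against CF and 3 down-regulated (adjusted p-value under 0.05 from limma). Among all features chosen alike, 6.06% were up-regulated and 0.466% down-regulated, and 7.12% of all features tested were up-regulated. A mean under 10 in control females was found for 1943 insertions, and 103 of them (5.30%) were up-regulated in IM against CM, with 4 down-regulated, and the share up-regulated was 5.31% among all features chosen alike and 7.11% of all features tested. Down-regulated were 9.71% of all features chosen alike and 0.206% of the insertions. In both sexes the up-regulated share of the chosen insertions was therefore close to that of all features chosen alike. A smaller part of the chosen insertions passed the filter, however, and the 7.12% and 7.11% are over tested features. Of those that passed, 100 of 509 insertions and 481 of 2866 features were up-regulated in females. In males it was 103 of 457 insertions and 582 of 5575 features. Counted so, the share was greater for the insertions, and more so in males. Low insertions could pass the filter through the mutant libraries in which they were high, so this count cannot decide whether the insertions differ from other features. Known transcripts chosen alike were up-regulated in 4.14% of cases in females and 3.46% in males, and down-regulated in 0.462% and 13.2%. Without mutant female replicate 1 the number up-regulated in females was 66. In males it was 67 without control male replicate 1, 66 with the edgeR quasi-likelihood test and 54 with only the 2 male groups in the fit.

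The 100 insertions up-regulated in females came from 45 families, among them 16 of Tirant, 12 of INE-1, 9 of Cr1a and 6 of X. The 103 in males came from 51 families, among them 19 of INE-1, 10 of Cr1a, 5 of 1360 and 5 of X. Tirant gave 2 in males, where 6 of its 23 copies were chosen, against 20 of 23 in the comparison of females. Each comparison used the controls of the other for its choice. The replicates are different pools of larvae, and p-values measure the spread between these pools.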

How the data were processed

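RNA was measured in 12 libraries of whole third-instar larvae, depleted of ribosomal RNA. Per the labels and methods, reads were trimmed with Trimmomatic (version 0.39), mapped with HISAT2 (version 2.2.1) to the build BDGP6 and quantified per transcript with StringTie (version 2.1.5). The authors deposited a signal, the reads of each feature divided by a DESeq2 (version 1.32.0) size factor per library, between 0.798 and 1.59. Whole multiples of a smallest step, called reads here, could be recovered. Of the values under 1000 reads, 100% lay within 0.01 of such a multiple.

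Groups and replicate numbers were taken from the titles, and no library was left out. All 3840 insertions were matched to a symbol. The members and lists were chosen with earlier results of these data known. The main test was limma (version 3.58.1, R 4.3.3) on log2(normalized count + 1), with 4 group means, an intensity trend and Benjamini-Hochberg adjustment over features with at least 10 in at least 3 libraries; this scale understates the change of low features. edgeR (version 4.0.16, quasi-likelihood) and DESeq2 (version 1.42.0) on the recovered reads, TMM, other thresholds, filters and pseudocounts, the replicate number as a block and leaving out each library were alternatives. The tests were tried on simulated counts. Named insertions were the 10 highest in mutants of each sex with all 3 libraries at 10 or more, those called between the mutant sexes, the 3 on each side of the threshold, and the highest of the leading families (6, as 3 were tied). Families were put in classes by a list, to which spelling variants were added after the names were seen.

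Positions and sequences of the insertions were not used here, and known transcripts were not linked to genes, so *ISWI* itself, TE silencing genes and markers of sex and tissue were not analysed here.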

Additional observations from a re-analysis of the deposited data

Results flagged for a closer look

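The difference between mutant and control larvae was not the same in the 2 sexes for 1 near-silent insertion, HeT-A{}5504, by the interaction of sex and group in limma. The control columns also chose the insertions, so this is a description, and the mutation and the strain cannot be told apart. HeT-A is a non-LTR retrotransposon that is added to chromosome ends and maintains the telomeres of flies. The copy had no read in CF and 18.8, 14.5 and 25.1 normalized counts in CM. It had 85.1, 127 and 109 in IF and 99.7, 77.7 and 104 in IM, so the mutant sexes overlapped and the control sexes did not. The mutant females were at least 40.9-fold higher than control females against 3 reads per library, and the ratio of means in males was 4.82. The interaction was -4.50 on the log2 scale with 1 added, on which libraries without a read depend (standard error 0.68). The call was lost without control male replicate 1 or control male replicate 3. The 17 HeT-A insertions summed to 1233 ± 243 (SD, n = 3) for CF, 2037 ± 108 for CM, 3008 ± 396 for IF and 2428 ± 792 for IM.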

How the results depend on the processing

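With every mutant library of a sex at 10 or more, the number reaching 10 was 135 in females, 156 in males and 100 in both, and with every control library under 10 it was 137, 176 and 99. With a threshold of 5, 984 insertions stayed silent, of 1505 chosen. TMM normalization and a threshold of 20 kept these counts within 1.5 times. When 1 library, or replicate 2 of both male groups (chosen after seeing the data), was left out, females reached 10 for 290 to 347 insertions, males for 293 to 423 and both for 207 to 255, and 1464 to 1556 stayed silent. Calls higher in mutant males numbered 0 with edgeR, 10 without a filter, 0 with only the 2 groups in the fit and 0 to 1 without a library. Calls lower in mutant males numbered 2 with DESeq2, 3 without a filter, 1 with a pseudocount of 5 and 0 to 1 without a library. Up-regulated insertions chosen on control males numbered 66 to 83 without a library. Those chosen on control females numbered 66 with edgeR, 54 with only the 2 groups in the fit and 67 to 79 without a library. The difference of the sums lay between 2696 and 6317 without a library and did not change sign. Same-numbered libraries had correlations of -0.0071 to 0.19 between their deviations, the highest for replicate 2 of the control and mutant males, and the others under 0.1, so the numbers were not taken as pairs. With the replicate number as a block, 2 calls were higher and 0 lower in mutant males, and 95 insertions chosen on control males and 97 chosen on control females were up-regulated. The call of FB{}2581 was lost in the block fit (adjusted p = 0.093 from limma). INE-1{}3545 could not be fitted without a mutant male library, since it then failed the filter. The causes were not tested. Depth limits the insertions of a few reads, whose values move in steps of 1 read.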
